A study of Mus musculus with 16 samples.

Results

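The genes described here are 10 feedback inhibitors of mitogen-activated protein (MAP) kinase signalling: the dual-specificity phosphatases Dusp1, Dusp2, Dusp4, Dusp5, Dusp6 and Dusp16, the Sprouty genes Spry1 and Spry2, and the Sprouty-related genes Spred1 and Spred2. They were taken by gene symbol from the 52636 gene rows of each library. The samples were RAW 264.7 cells, a mouse macrophage-like line grown from a virus-induced tumour, in 16 libraries of 3′ messenger RNA ends. The 4 groups had 4 libraries each: control siRNA; siRNA against Cebpb; control siRNA followed by isoproterenol; and siRNA against Cebpb followed by isoproterenol. Every well, the controls included, received siRNA at 25 nM with a lipid transfection reagent, and isoproterenol was added after 24 h of transfection; the labels give neither its dose nor its duration. The labels split the libraries into 2 experiments, each with 2 replicates of every group. They name 1 siRNA product against Cebpb, so a consequence of losing the Cebpb transcript and any other action of that siRNA cannot be told apart. All groups come from 1 cell line, and the series describes the replicates as biological without saying whether they were separate cultures, so the p-values measure the spread between these libraries.

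MAP kinases such as ERK, p38 and JNK are switched on by phosphorylation of a threonine and a tyrosine, and dual-specificity phosphatases switch them off by removing both phosphates. Sprouty and Spred proteins act further upstream, between growth-factor receptors, Ras and Raf. Many of these genes are themselves transcribed when the kinases are active, which closes a negative feedback loop, and in macrophages Dusp1 in particular limits the production of inflammatory cytokines. Isoproterenol stimulates beta-adrenergic receptors, which raise cyclic AMP (cAMP) and lead to phosphorylation of the transcription factor CREB. Cebpb encodes C/EBPβ, a transcription factor of the same leucine-zipper class that takes part in macrophage gene expression.

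Levels are reads for each 1000000 reads sequenced (RPM) as deposited, and values at or under 1 RPM are listed as 0. The libraries held 9.42 to 25.17 M reads, of which 5.809 to 15.896 M lay on listed genes, so that 1 RPM stood for 9 to 25 reads. Differences are log2 differences between group means after scaling of the libraries, given ± the standard error and tested with limma over 11044 genes with the experiment as a term; a gene was called at a Benjamini-Hochberg adjusted p under 0.05. Because reads were counted near the 3′ end, levels are compared between groups and not between genes. Replicate libraries differed by more than counting error, with a chi-square of 4.93 to 13.3 per degree of freedom.

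The siRNA lowered its target in both settings. Cebpb was at 76.1 ± 11.2 RPM (SD, n = 4) with control siRNA and at 22.9 ± 8.83 RPM (n = 4) with Cebpb siRNA, and at 92.1 ± 10.4 and 26.5 ± 2.05 RPM (n = 4 each) in the isoproterenol groups. After scaling, 30.4% and 30.3% of the Cebpb level was left (limma adjusted p = 4.94e-07 and 4.56e-07). In bulk RNA, a lower level in all cells and a loss in some of the cells cannot be told apart. The highest Cebpb level under the siRNA, 33.1 RPM, was in replicate 2 of experiment 2, which is also the library with the fewest reads. Without that library 6 of the 9 tested genes were still called between the siRNAs in untreated cells. From all libraries, 61.4% of all genes were called there. The 9 macrophage markers examined were above 1 RPM in every library, with a summed level of 1666 to 2155 RPM with control siRNA, 2017 to 2219 with Cebpb siRNA, 2241 to 2780 with control siRNA and isoproterenol and 2099 to 2642 with both. With Cebpb siRNA 6 of the 9 were called higher and 1 lower without isoproterenol (median log2 difference 0.408), and 5 higher and 2 lower with it (0.372). Of all genes 61.4% and 62.1% were called in these 2 comparisons. Isoproterenol raised 2 of the 9 in control siRNA cells, Cd14 and Lyz2, and 1 in Cebpb siRNA cells, Fcgr3, where 1.62% and 5.48% of all genes were called. All markers of T cells (6), B cells (5), fibroblasts (5) and epithelium (5) were listed at 0 in all libraries, as were 5 of 6 neutrophil and 3 of 5 dendritic cell markers. The neutrophil marker S100a8 was at 2.28 to 3.48 RPM with control siRNA, at 4.44 to 5.84 RPM with isoproterenol added, and at 0 to 1.05 RPM in all Cebpb siRNA libraries. Of the dendritic cell markers detected, Batf3 was at 3.51 to 6.30 RPM in the control siRNA libraries and at 0 to 1.55 RPM in the Cebpb siRNA libraries, and Zbtb46 at 3.61 to 6.64 RPM over all libraries. Mitochondrial ribosomal RNA (mt-Rnr2) moved with both treatments. It was at 18695 RPM with control siRNA, 21389 with control siRNA and isoproterenol, 26452 with Cebpb siRNA and 32049 with both, and the control siRNA groups without and with isoproterenol did not overlap; with the siRNA, unmapped reads went from 5.45% to 6.956% and, with isoproterenol, from 5.395% to 6.626%. Their part in the results below was not tested.

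Of the 10 genes, 9 were above 1 RPM in all 16 libraries. Spry1, whose product restrains receptor tyrosine kinase signalling, was listed at 0 in all 16 libraries and could not be tested; its gene lies on chromosome 3 (37639947 to 37644598, plus strand, GRCm38, like the other coordinates here). Spry2, the other Sprouty gene (chromosome 14, 105891947 to 105896819), was detected at 8.66 to 13.0 RPM and Spred2 (chromosome 11, 19924375 to 20024026) at 5.003 to 10.2 RPM. Dusp4 spanned 28.2 to 37.9 RPM and Dusp16 31.4 to 45.0 RPM over the 16 libraries. Dusp1 ranged from 33.2 to 72.5 RPM, Dusp2 from 7.29 to 35.4, Dusp5 from 19.1 to 55.1, Dusp6 from 66.1 to 129 and Spred1 from 79.0 to 167. Where groups are said below not to overlap, how many of all genes separate in the same way was not counted. What is known over all genes is the share called, a different measure. Between the siRNAs it was 61.4% without and 62.1% with isoproterenol. For isoproterenol it was 1.62% in control siRNA cells and 5.48% in Cebpb siRNA cells. Such separation is therefore not shown to be particular to these genes.

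**Figure D1:**
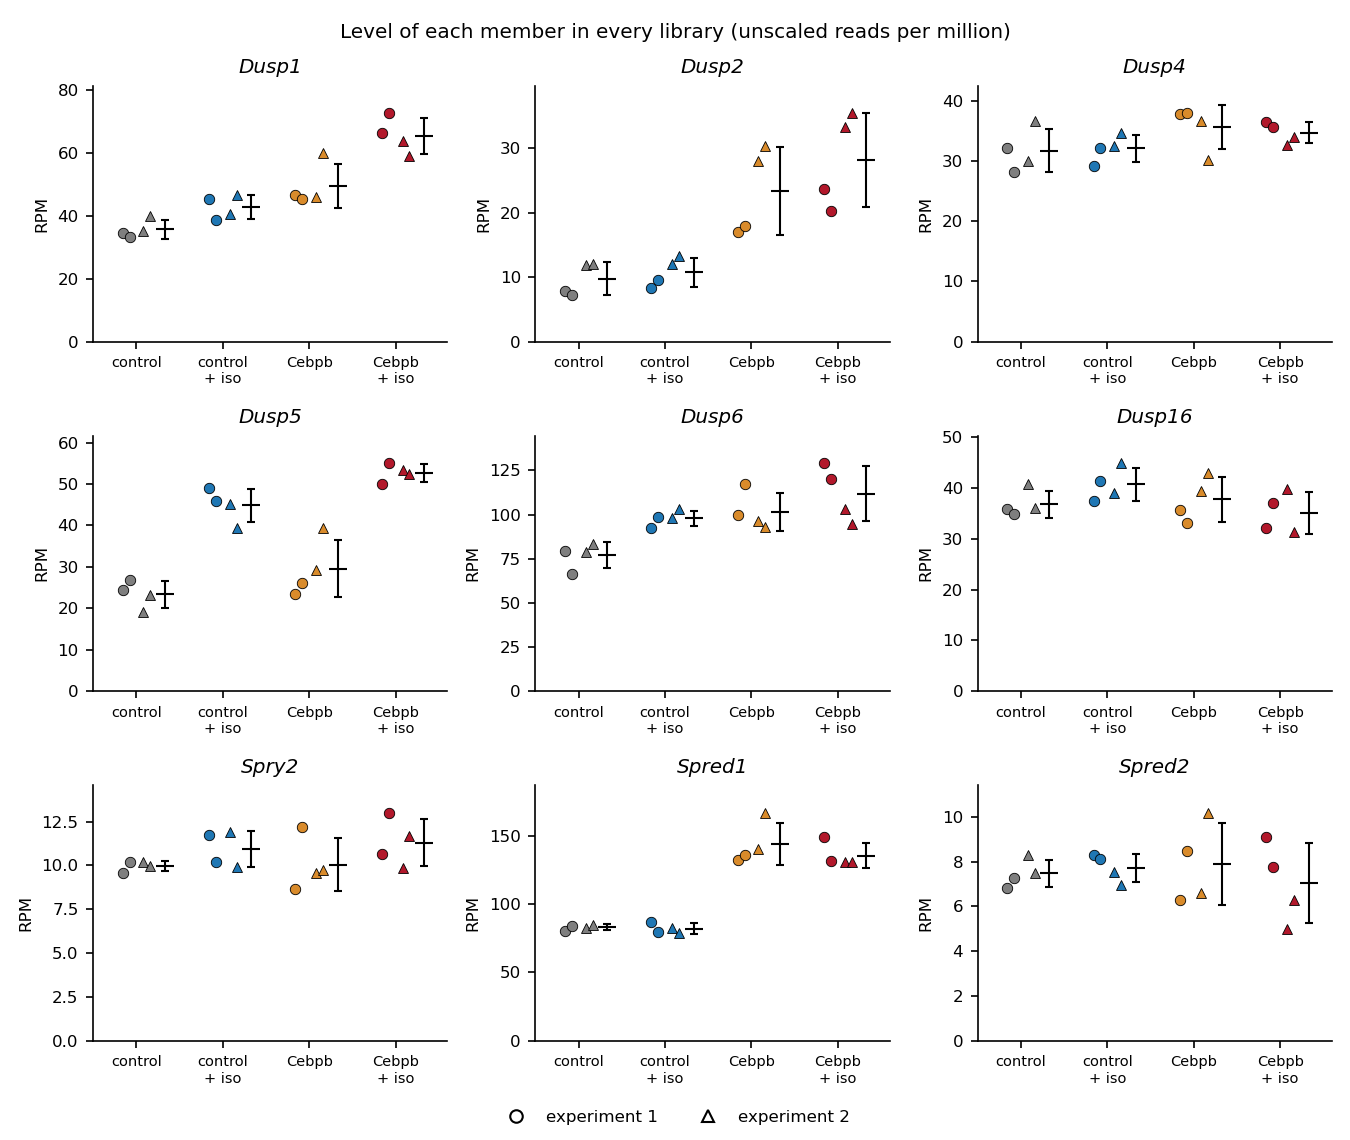
Level of the 9 detected genes in every library, in unscaled RPM (y axes start at 0), by group (x axis; iso, isoproterenol). Circles are libraries of experiment 1 and triangles of experiment 2; the horizontal mark and bars give the mean and SD of the 4 libraries. Dusp5 separates by isoproterenol, Spred1 by siRNA alone, and Dusp2 by siRNA and by experiment.

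Isoproterenol acted on few genes of this family. In control siRNA cells 2 of the 9 tested genes rose and none fell: Dusp5, a nuclear phosphatase selective for ERK, 1.88-fold, and Dusp6, its cytoplasmic ERK-selective counterpart, 1.25-fold. Over all 11044 genes 1.62% were called in this comparison and 1.17% were called higher. In Cebpb siRNA cells 2 of the 9 rose, Dusp5 1.75-fold and Dusp1 1.28-fold, against 5.48% of all genes called and 2.83% called higher. The median log2 difference of the 9 genes was 0.11 in control siRNA cells, where the median of all genes was −0.001, and 0.079 in Cebpb siRNA cells, where it was −0.007.

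Dusp5 (chromosome 19, 53529109 to 53542431, plus strand) gave the clearest response. In control siRNA cells it was at 24.4 and 26.9 RPM in experiment 1 and at 19.1 and 23.1 RPM in experiment 2; with isoproterenol it was at 48.9 and 45.9 RPM, and 45.2 and 39.4 RPM. Every treated library lay above every untreated one. The log2 difference was 0.91 ± 0.13 (limma adjusted p = 0.000342), which ranked 18th in size among the 11044 genes, and it was 0.84 in experiment 1 alone (adjusted p = 0.000117) and 0.99 in experiment 2 alone (adjusted p = 0.0459). In Cebpb siRNA cells Dusp5 went from 23.6 and 26.2 RPM in experiment 1 and 29.3 and 39.3 RPM in experiment 2 to 49.9 and 55.1 RPM, and 53.4 and 52.4 RPM. Again the groups did not overlap, and the log2 difference was 0.81 ± 0.13 (adjusted p = 0.000662). It was 1.04 in experiment 1 alone (adjusted p = 1.89e-05) and 0.57 in experiment 2 alone, where it missed the threshold (adjusted p = 0.119) and where the untreated Cebpb siRNA libraries were higher than in experiment 1. An annotated gene on the opposite strand, AC137853.2, overlaps exons of Dusp5.

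The difference between these responses was −0.11 ± 0.19 for Dusp5 (limma adjusted p = 0.967), with a 95% interval from −0.50 to 0.28. None of the 9 genes was called for this difference, against 0.226% of all genes (25 genes; 702 had an unadjusted p under 0.05). Among the 9, Dusp6 (−0.24 ± 0.11, unadjusted p = 0.0453, adjusted p = 0.774) and Dusp16 (−0.27 ± 0.12, unadjusted p = 0.0356, adjusted p = 0.742) were under 0.05 before adjustment. A dependence of the isoproterenol response on the siRNA was therefore not shown for any of them.

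Dusp1 (chromosome 17, minus strand), an inducible nuclear phosphatase that acts on p38 and JNK as well as ERK, was at 34.5, 33.2, 35.0 and 39.8 RPM with control siRNA and at 45.4, 38.7, 40.6 and 46.4 RPM with control siRNA and isoproterenol. These ranges overlapped, and the log2 difference of 0.23 ± 0.10 was not called (limma adjusted p = 0.329). With Cebpb siRNA it was at 46.6 and 45.3 RPM in experiment 1 and 45.9 and 59.9 RPM in experiment 2; adding isoproterenol gave 66.2 and 72.5 RPM, and 63.6 and 59.0 RPM. Here the log2 difference was 0.35 ± 0.10 (adjusted p = 0.0295), carried mostly by experiment 1 (0.55, adjusted p = 0.00706) and not called in experiment 2 (0.16, adjusted p = 0.599). The call was lost when any 1 of 6 libraries was left out: both replicates of experiment 1 and replicate 1 of experiment 2, in the Cebpb siRNA group and in that group with isoproterenol. Without them the difference was 0.30 to 0.37 and the adjusted p 0.0509 to 0.107. The exons of Dusp1 overlap those of Ergic1 on the opposite strand, which was at 45.5 to 72.2 RPM. No source used here gives the strand setting of the counting, so whether reads on the shared bases were kept apart is not known. How far the shared bases lie from the 3′ ends that were counted was not examined.

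Dusp6 (chromosome 10, 99263231 to 99267489, plus strand) was at 79.5, 66.1, 79.0 and 83.3 RPM with control siRNA and at 92.5, 98.4, 98.04 and 103 RPM with control siRNA and isoproterenol. The 4 treated libraries were all above the untreated ones, by a log2 difference of 0.32 ± 0.08 (limma adjusted p = 0.0451). That call stood close to the threshold. It was lost on leaving out any 1 of 11 of the 16 libraries (difference 0.24 to 0.35, adjusted p 0.0507 to 0.188), and it was missed in experiment 1 alone (0.35, adjusted p = 0.0833) and in experiment 2 alone (0.29, adjusted p = 0.562). The 11 were all of the control siRNA libraries with isoproterenol, 3 of those without it (not replicate 2 of experiment 2), replicate 1 of each experiment with Cebpb siRNA, and 2 libraries with both treatments (replicate 2 of experiment 1 and replicate 1 of experiment 2). In Cebpb siRNA cells Dusp6 was at 99.6, 117, 96.3 and 93.1 RPM without and at 129, 120, 103 and 94.9 RPM with isoproterenol, which overlap, with a difference of 0.08 ± 0.08 (adjusted p = 0.645).

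The remaining genes gave no called response to isoproterenol. In control siRNA cells the 95% intervals of the log2 difference were −0.06 to 0.31 for Dusp2, −0.18 to 0.16 for Dusp4, −0.07 to 0.29 for Dusp16, −0.13 to 0.32 for Spry2, −0.21 to 0.11 for Spred1 and −0.32 to 0.35 for Spred2. A change of the size seen for Dusp5 lay outside all 6 intervals.

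The promoters of Dusp1 and Dusp5 are shown because cAMP is known to act through the cAMP response element, to which CREB binds. RefSeq promoter windows (GRCm38.p6, 250 bases before to 50 after the annotated start) were found for 9 of the 10 genes, all but Dusp4. Capitals mark the full element TGACGTCA and its core TGACG, on either strand; each full element holds the core in both orientations.

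Dusp1, chr17:26508423-26508722, minus strand: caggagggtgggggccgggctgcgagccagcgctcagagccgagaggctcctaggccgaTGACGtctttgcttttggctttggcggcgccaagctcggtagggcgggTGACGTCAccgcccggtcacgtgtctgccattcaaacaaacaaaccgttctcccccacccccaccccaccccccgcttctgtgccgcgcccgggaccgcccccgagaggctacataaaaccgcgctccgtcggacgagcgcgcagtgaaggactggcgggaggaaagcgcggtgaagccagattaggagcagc

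Dusp5, chr19:53528895-53529194, plus strand: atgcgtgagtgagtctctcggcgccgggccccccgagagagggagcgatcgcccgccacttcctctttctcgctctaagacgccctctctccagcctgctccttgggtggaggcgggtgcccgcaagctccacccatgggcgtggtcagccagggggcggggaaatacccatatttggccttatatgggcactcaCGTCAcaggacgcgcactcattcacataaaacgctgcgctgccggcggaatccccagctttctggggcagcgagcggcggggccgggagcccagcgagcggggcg

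The full element was in the Dusp1 window alone, 143 bases before the start; 588 of 32851 RefSeq promoter windows of this length (1.79%) hold it. The core TGACG was in 5 of the 9 windows, those of Dusp1 (also at 191 bases before the start), Dusp2, Dusp5 (55 bases before), Dusp16 (70 bases before) and Spred2 (51 bases before), and in 20.81% of all windows. Dusp5, Dusp2, Dusp16 and Spred2 have the core and not the full element in these windows. Dusp6 has neither. These are matches of letters, not measured binding, and their part in the isoproterenol responses was not tested.

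The siRNA against Cebpb moved more of these genes than isoproterenol did, and all called ones upward. Without isoproterenol 6 of the 9 tested genes were higher with Cebpb siRNA and none was lower: Dusp2 2.54-fold, Spred1 1.85-fold, Dusp1 1.48-fold, Dusp6 1.41-fold, Dusp5 1.34-fold and Dusp4 1.2-fold. With isoproterenol 5 of the 9 were higher and none lower: Dusp2 2.72-fold, Spred1 1.73-fold, Dusp1 1.61-fold, Dusp5 1.24-fold and Dusp6 1.19-fold. The background was broad, since 61.4% of all genes were called without and 62.1% with isoproterenol, 31.5% and 32.1% as higher. The share of the 9 that was called was near this background in both settings. After scaling, all their calls were in 1 direction, where those of all genes were split about evenly. No test was made of that contrast, and the 9 genes were chosen with earlier results of these data known. The macrophage markers moved alongside, with 6 of 9 higher without isoproterenol (median 0.408), and their part was not tested. For the 9 feedback genes the median log2 difference was 0.42 without and 0.25 with isoproterenol, against medians of 0.021 and 0.022 over all genes. On the values as deposited, without scaling, the split of all calls moved from 3482 higher and 3294 lower to 2726 and 3917, and with isoproterenol from 3546 and 3312 to 2976 and 3761. On those values Dusp4 lost its call without isoproterenol, and Dusp5 and Dusp6 lost theirs with it. Dusp16 was then called lower with isoproterenol (−0.22, limma adjusted p = 0.0314), so the single direction depends on the scaling.

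**Figure D2:**
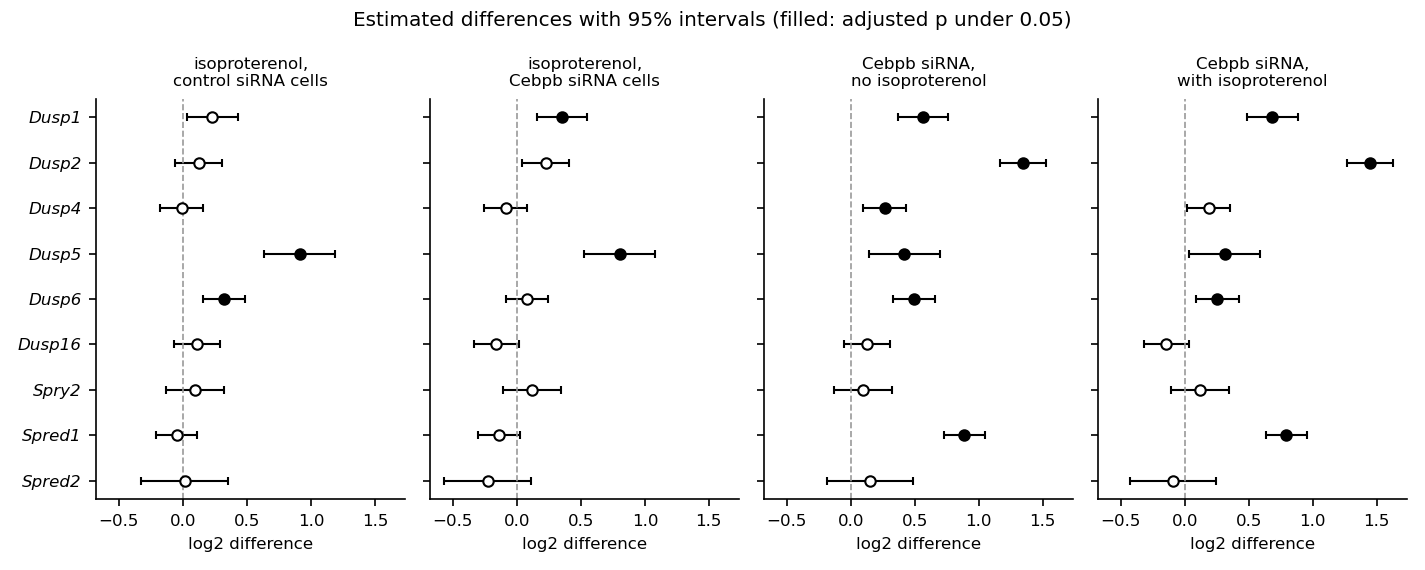
Log2 differences (x axis) of the 9 tested genes in the 4 comparisons, with 95% intervals; filled points have an adjusted p under 0.05. Dusp5 stands out in both isoproterenol panels, and Dusp2 and Spred1 lie furthest to the right in both siRNA panels.

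Dusp2 (chromosome 2, 127336159 to 127338376, plus strand), a nuclear phosphatase of blood cells also known as PAC-1, had the largest difference of the 9 genes in both settings. With control siRNA it was at 7.87 and 7.29 RPM in experiment 1 and 11.9 and 12.01 RPM in experiment 2; with Cebpb siRNA it was at 17.0 and 17.9 RPM, and 28.1 and 30.4 RPM. Each of the 4 Cebpb siRNA libraries was above every control library, although the 2 experiments lay at different levels within both groups. The log2 difference was 1.34 ± 0.09 (limma adjusted p = 1.45e-11), ranked 565th in size of 11044 genes, and was 1.26 in experiment 1 and 1.43 in experiment 2. In the isoproterenol groups Dusp2 went from 8.31 and 9.56 RPM in experiment 1 and 11.98 and 13.2 RPM in experiment 2 to 23.7 and 20.2 RPM, and 33.2 and 35.4 RPM, a log2 difference of 1.45 ± 0.09 (adjusted p = 4e-12). Dusp2 was also the only one of the 9 called between the experiments: it was 1.55-fold higher in experiment 2 (0.63 ± 0.06, adjusted p = 1.01e-07), in a comparison in which 32.9% of all genes were called.

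Spred1 (chromosome 2, 117121374 to 117182279, plus strand) encodes an inhibitor of Ras that works together with neurofibromin. It was at 80.1, 83.9, 82.9 and 85.1 RPM with control siRNA and at 133, 136, 140 and 167 RPM with Cebpb siRNA. With isoproterenol the control siRNA libraries were at 87.3, 79.9, 82.6 and 79.0 RPM and the Cebpb siRNA libraries at 149, 132, 131 and 131 RPM. The 8 control siRNA libraries stayed within 79.0 to 87.3 RPM whether treated or not, and all 8 Cebpb siRNA libraries were at 130.5 RPM or more. The log2 differences were 0.89 ± 0.08 without (limma adjusted p = 1.91e-09) and 0.79 ± 0.08 with isoproterenol (adjusted p = 9.84e-09). Its relative Spred2 was at 6.82, 7.29, 8.29 and 7.50 RPM with control siRNA and 6.31, 8.49, 6.60 and 10.2 RPM with Cebpb siRNA, which overlap, with a difference of 0.15 and a 95% interval of −0.19 to 0.49.

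Promoter windows of the 2 genes with the largest siRNA differences are printed as for Dusp1 and Dusp5. C/EBP proteins bind sequences related to the palindrome searched here as TTGCNNAA on both strands, and it occurred in none of the 9 windows, against 10.8% of all RefSeq windows; this says only that those letters are not within these bases. The capitals in Dusp2 mark the core TGACG on the opposite strand, starting 6 bases into the transcript, and Spred1 holds none of the motifs.

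Dusp2, chr2:127335909-127336208, plus strand: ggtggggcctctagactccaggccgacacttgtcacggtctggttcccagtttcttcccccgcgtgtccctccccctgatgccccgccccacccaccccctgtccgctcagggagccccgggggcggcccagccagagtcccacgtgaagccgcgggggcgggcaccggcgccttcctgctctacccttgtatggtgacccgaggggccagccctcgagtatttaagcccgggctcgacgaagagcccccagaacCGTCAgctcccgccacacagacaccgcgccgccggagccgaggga

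Spred1, chr2:117120821-117121120, plus strand: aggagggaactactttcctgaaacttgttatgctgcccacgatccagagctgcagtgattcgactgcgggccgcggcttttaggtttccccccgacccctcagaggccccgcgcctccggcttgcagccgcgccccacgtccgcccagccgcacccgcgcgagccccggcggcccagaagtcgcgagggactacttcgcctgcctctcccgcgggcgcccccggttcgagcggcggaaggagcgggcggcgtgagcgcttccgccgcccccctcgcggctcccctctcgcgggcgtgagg

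Dusp1 and Dusp6 were higher with the siRNA in the libraries without isoproterenol. For Dusp1 the log2 difference was 0.56 ± 0.10 without isoproterenol (limma adjusted p = 2.37e-05) and 0.68 ± 0.10 with it (adjusted p = 1.7e-06), and from the levels given above the Cebpb siRNA libraries lay above the matching control libraries in both settings, without overlap. It was called in each experiment alone, at 0.50 and 0.63 without and 0.79 and 0.58 with isoproterenol. For Dusp6 the difference without isoproterenol was 0.50 ± 0.08 (adjusted p = 1.46e-05), the groups did not overlap, and both experiments gave the call (0.63 and 0.36). With isoproterenol the Dusp6 groups overlapped and the difference was 0.25 ± 0.08 (adjusted p = 0.00901), which experiment 1 alone gave (0.44, adjusted p = 0.000397) and experiment 2 alone did not (0.06, adjusted p = 0.58). Leaving out replicate 1 of experiment 1 of the Cebpb siRNA and isoproterenol group took it to 0.18 (adjusted p = 0.0541), as did the values without scaling (0.18, adjusted p = 0.0904).

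The siRNA difference of Dusp5 came out at unlike sizes in the 2 experiments. Without isoproterenol it was 0.42 ± 0.13 (limma adjusted p = 0.00987) over all libraries, 0.01 in experiment 1 alone (adjusted p = 0.948) and 0.83 in experiment 2 alone (adjusted p = 0.0017), where the control libraries of 19.1 and 23.1 RPM faced Cebpb siRNA libraries of 29.3 and 39.3 RPM; the difference between the experiments was not tested. Leaving out control siRNA replicate 1 of experiment 2 gave 0.31 (adjusted p = 0.0503). With isoproterenol the 4 Cebpb siRNA libraries, at 49.9 to 55.1 RPM, were all above the 4 control libraries, at 39.4 to 48.9 RPM, and the difference was 0.31 ± 0.13 (adjusted p = 0.0483). That call was lost on leaving out any 1 of 9 libraries (difference 0.24 to 0.33, adjusted p 0.0501 to 0.156): all 4 with both treatments, the control siRNA libraries with isoproterenol other than replicate 1 of experiment 1, and control siRNA replicate 1 of experiment 1 and replicate 2 of experiment 2. Counting these, the call was lost under 18 of the 28 alternatives. They include the values without scaling (0.24, adjusted p = 0.0954) and the fit without the experiment term (0.31, adjusted p = 0.0658). It was also missed in experiment 1 alone (0.21, adjusted p = 0.0781) and in experiment 2 alone (0.41, adjusted p = 0.0508).

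**Figure D3:**
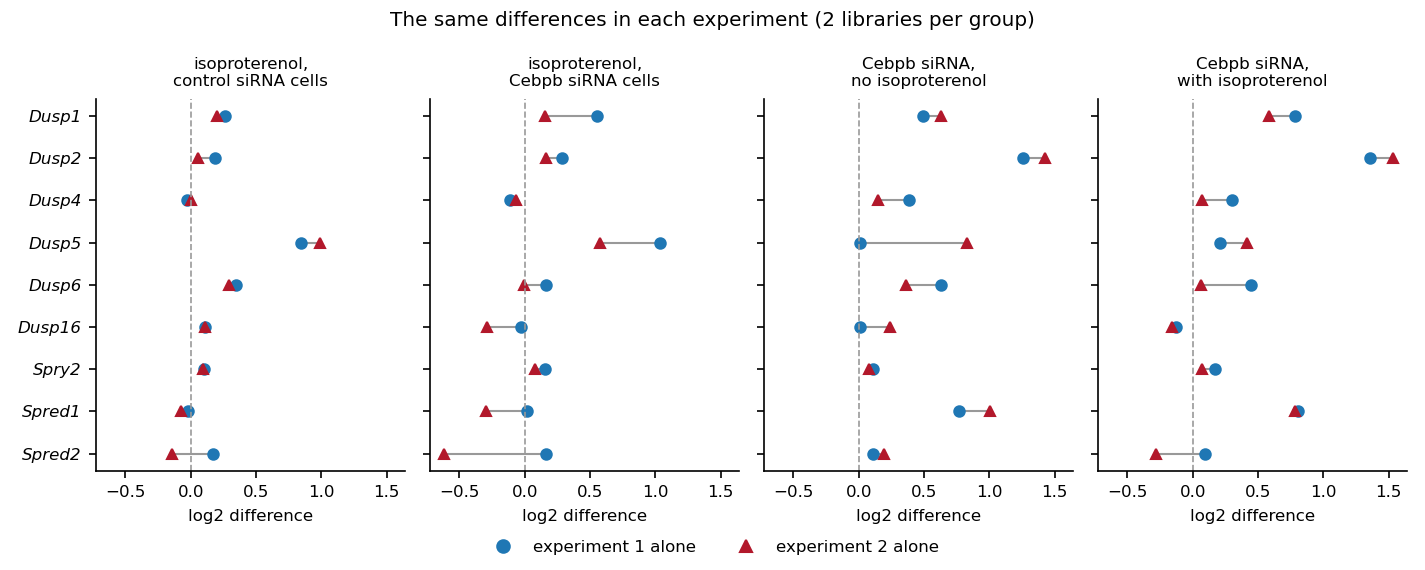
Log2 difference (x axis) of each gene when the 2 experiments are fitted separately, 2 libraries per group; circles are experiment 1, triangles experiment 2, and a line joins the values of a gene. Dusp2 and Spred1 have like siRNA differences in both experiments, while Dusp5 without isoproterenol runs from 0.01 to 0.83.

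Dusp4 (chromosome 8, 34807297 to 34819894, plus strand), a nuclear phosphatase closely related to Dusp1, was at 32.2, 28.2, 29.9 and 36.6 RPM with control siRNA and at 37.7, 37.9, 36.7 and 30.1 RPM with Cebpb siRNA. The ranges overlapped. The difference of 0.26 ± 0.08 was called (limma adjusted p = 0.00738), in experiment 1 alone it was 0.38 (adjusted p = 0.00215), and in experiment 2 alone (0.15, adjusted p = 0.365) and without scaling (0.17, adjusted p = 0.112) it was not. With isoproterenol it was 0.19 ± 0.08 and missed the threshold (adjusted p = 0.0513); leaving out any 1 of 5 libraries brought it past (0.19 to 0.22, adjusted p 0.029 to 0.0483). These were replicate 2 of both experiments with control siRNA, replicate 2 of experiment 2 with Cebpb siRNA and with control siRNA and isoproterenol, and replicate 1 of experiment 2 with both treatments.

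Dusp16 (chromosome 6, 134715468 to 134792625, minus strand), which acts on JNK and p38, and Spry2 showed no called siRNA difference. Dusp16 was at 35.8, 34.8, 40.7 and 36.04 RPM with control siRNA and 35.6, 33.1, 39.5 and 43.0 RPM with Cebpb siRNA; with isoproterenol its difference of −0.15 (limma adjusted p = 0.148) had the opposite sign, and on the values as deposited it was −0.22 and called lower (adjusted p = 0.0314). Spry2 differed by 0.10 (95% interval −0.13 to 0.32) without isoproterenol and stayed within 8.66 to 13.0 RPM in all libraries. Spry2 had 92 to 257 reads per library and Spred2 96 to 196.

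The 3′ untranslated regions (UTRs) were searched for the word AACTTGT, which was picked with results of these same libraries known, so what follows is a description with no test. Of 10114 tested genes with an annotated 3′ UTR (the longest in GENCODE release 21 for mouse), 1510 (14.9%) contain it. Without isoproterenol 49.3% of them were called lower with Cebpb siRNA and 19.9% higher, against 28.0% lower and 34.2% higher of the 8604 genes without the word. Among the feedback genes it occurs once each in Dusp5, Dusp16 and Spred2, and not in Dusp2, Spred1, Dusp1 or Dusp6, the 4 genes with the largest siRNA differences without isoproterenol. A longer UTR has more room for a word, and lengths were not matched in any of these counts. The UTRs of Dusp5, Dusp16 and Spred2 have 1109, 2416 and 2579 bases. Those of Dusp2, Spred1, Dusp1 and Dusp6 have 581, 4330, 690 and 1190, and the median over all genes is 1198. The sites are shown with the word in capitals.

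Dusp5, chr19:53541385-53541411, plus strand: tttgttttaaAACTTGTggacatttca

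Dusp16, chr6:134717202-134717228, minus strand: ataagtaggtAACTTGTcactttccag

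Spred2, chr11:20021481-20021507, plus strand: ggccacgggcAACTTGTctcttgcgca

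The 3 genes with the word had siRNA differences without isoproterenol of 0.42 (Dusp5), 0.13 (Dusp16) and 0.15 (Spred2), the latter 2 not called and none lower. The shorter core ACTTGT, which 38.1% of genes contain, is also in Spred1, which was higher with the siRNA.

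Other genes of the pathways give the setting. Of the 18 tested genes of the ERK cascade that were counted, from the receptor Csf1r and its adaptors through Ras and Raf to the ERK-activated kinases, 5 were higher and 5 lower with Cebpb siRNA without isoproterenol, with a median of 0.015, in a comparison in which 61.4% of all genes were called and 31.5% called higher. The adaptors Grb2 and Shc1, which link receptors to Ras, were 1.6-fold and 1.54-fold higher (limma adjusted p = 4.48e-10 and 1.27e-05), and the ERK-activated kinase Rps6ka1 was 1.56-fold higher (adjusted p = 2.11e-08). Those lower were Braf, Hras, Araf, Gab2 and Ptpn11, by 1.21-fold to 1.4-fold. With isoproterenol 5 of the 18 were higher and 6 lower, and 62.1% of all genes were called.

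Of 12 other tested dual-specificity phosphatases, 2 were higher and 5 lower with the siRNA, with a median of −0.15 against 0.42 for the feedback genes. Both lists were chosen with earlier results of these data known, so the medians are set side by side as a description only. Dusp18 was 2.44-fold and Dusp28 1.34-fold higher. Dusp18 lay near the floor, at 0 to 1.52 RPM with control siRNA and 2.40 to 3.40 RPM with Cebpb siRNA, so its fold depends on the floor. Dusp9 was 1.9-fold and Dusp7 1.85-fold lower, both cytoplasmic relatives of Dusp6 that act on ERK, and Dusp11, Dusp3 and Dusp22 were 1.39-fold, 1.32-fold and 1.23-fold lower. With isoproterenol 3 were higher and 6 lower, among them Dusp19 at 1.19-fold higher and Dusp12 at 1.25-fold lower, where 62.1% of all genes were called. Dusp9 also fell 1.5-fold with isoproterenol in Cebpb siRNA cells, and between the experiments Dusp23 (1.73-fold) and Dusp28 (1.18-fold) were higher and Dusp8 (1.34-fold) lower in experiment 2. Dusp23 too lay near the floor, at 0 to 2.63 RPM with control siRNA and at no more than 3.15 RPM in any group. Of 15 other inhibitors of Ras and ERK, 8 were higher and 3 lower (median 0.32), among them Dok3 at 2.6-fold, Rasa1, a Ras GTPase-activating protein, at 1.86-fold and Rasal3 at 1.79-fold; those lower were Rasa2, Cbl and Dok1, by 1.2-fold to 1.26-fold. In the p38 and JNK cascades 7 of 14 were higher and 2 lower, with the p38 kinase kinase Map2k3 2.39-fold higher. The share called was 58.3% of the other phosphatases, 73.3% of the other inhibitors, 55.6% of the ERK cascade and 64.3% of the p38 and JNK genes, to be read against the 61.4% of all genes.

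**Figure D4:**
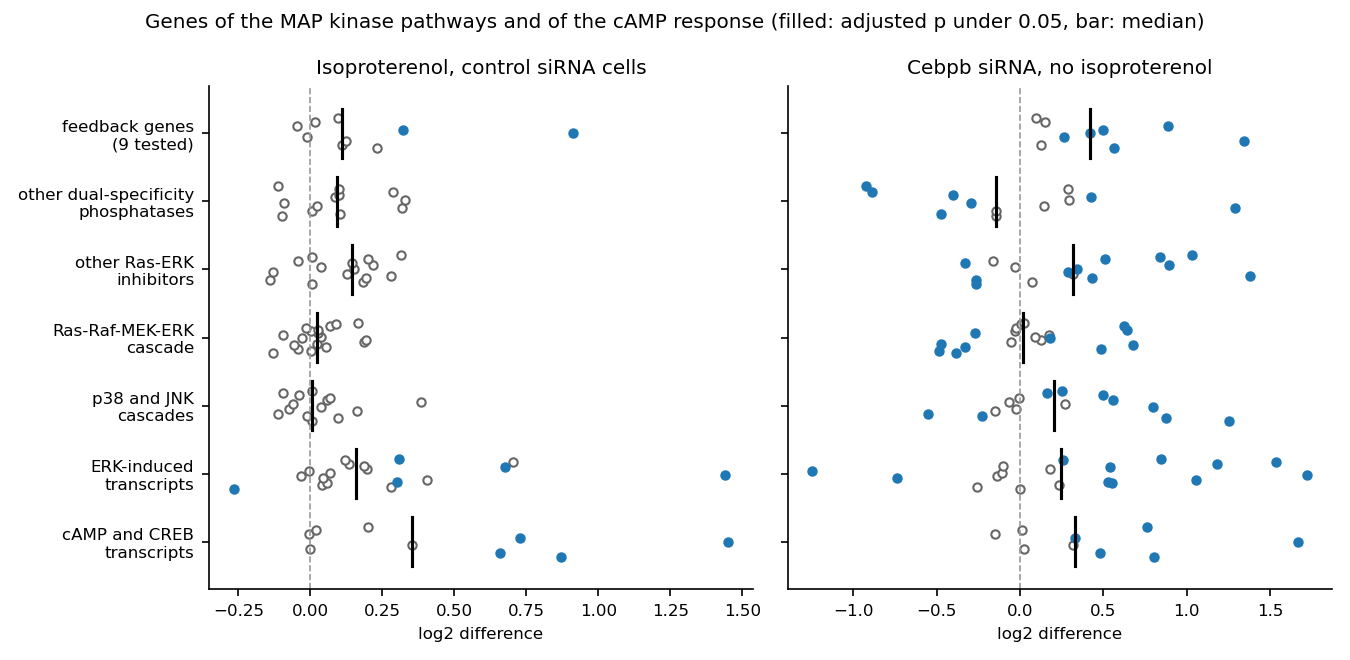
Log2 differences (x axis) of single genes in 7 lists (rows), for isoproterenol in control siRNA cells (left) and Cebpb siRNA without isoproterenol (right); filled points have an adjusted p under 0.05, the vertical bar is the list's median, and the x scales differ. On the left the filled points outside the feedback genes lie in the bottom 2 rows; on the right every row holds filled points.

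With isoproterenol in control siRNA cells, none of the 12 other dual-specificity phosphatases, 15 other inhibitors, 18 ERK-cascade or 14 p38 and JNK genes was called by limma (1, 3, 1 and 0 of them had an unadjusted p under 0.05). Transcripts that ERK is known to induce were called in 4 of 18 cases as higher and 1 as lower: Fos rose 2.71-fold (from 9.04 ± 2.14 to 24.6 ± 1.60 RPM, n = 4 each, limma adjusted p = 1.67e-08), Ier3 1.6-fold, Phlda1 1.24-fold and Emp1 1.23-fold, and Ccnd1 fell 1.2-fold. Of 9 cAMP and CREB transcripts 4 rose and none fell, Odc1 2.73-fold, Crem 1.83-fold, Pde4b 1.66-fold and Fosl2 1.58-fold. The other 5 cAMP transcripts and 13 ERK-induced ones were not called. Among those 5, Nr4a1 never exceeded 1 RPM in either control siRNA group, so a response there could not be seen. Over all genes 1.62% were called in this comparison. In Cebpb siRNA cells 6 of the 9 cAMP transcripts rose, adding Nr4a1 and Nr4a2. Nr4a1 was at 0 to 1.06 RPM with Cebpb siRNA and at 2.40 to 3.79 RPM with isoproterenol added. Without the libraries of the latter group it would not have passed the filter of 4 libraries above the floor. Its rise is therefore not independent of that filter, and its size depends on the floor. Of the 18 ERK-induced transcripts 4 rose in Cebpb siRNA cells, with Fos at 1.83-fold, and 1 fell. There 5.48% of all genes were called.

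Across the 16 libraries, genes of at least 10 RPM on average (6882) were ranked by Pearson correlation of their scaled log2 level with each tested member but Spred2, as a description over libraries that share groups and experiments. Spred2 averaged 7.535 RPM and was left out by the same limit. Nearest to Dusp5 were Pde4b (r = 0.917), the cAMP phosphodiesterase named above, Sfmbt1 (0.874) and Tnfrsf11a (0.871). Nearest to Dusp6 were Clec4n (0.937), C5ar1 (0.919) and S1pr1 (0.915), and nearest to Dusp1 were Sh3bgrl2 (0.953), Marcksl1 (0.95) and Gm45716 (0.94). Dusp2 was matched most closely by 2010320M18Rik (0.99), 2810474O19Rik (0.987) and Casp1 (0.986), and Spred1 by Reep3 (0.986), Zdhhc5 (0.984) and Tle4 (0.982). The closest genes to Dusp4, Dusp16 and Spry2 reached 0.854 (Fut11), 0.783 (Grpel1) and 0.677 (Man2a1), lower values for genes that varied little between groups.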

How the data were processed

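The files hold the log2 of reads for each 1000000 reads sequenced (RPM), as deposited by the authors, with values at or under 1 RPM listed as 0. Per the labels' protocols the kit was Lexogen's QuantSeq 3′ FWD, and the submitters' processing notes name STAR 2.5.3a and GRCm38. The counting tool, its strand setting and the annotation: not given in the sources used here. Whole reads could be recovered for 100% of values (within 0.1 read). Library scaling used trimmed means of log ratios (trimming 30% on ratio and 5% on level), followed by 1 floor for all libraries. The 11044 genes that exceeded this floor in 4 or more libraries were tested with limma 3.58.1 in R 4.3.3 (trend and robust, 4 groups and experiment as terms, Benjamini-Hochberg adjustment, threshold 0.05). The steps were tested on simulated data in which few genes changed, as many up as down, and the experiments did not differ. That simulation does not cover the scaling where most genes are called, as between the siRNAs. Replicate numbers did not pair the libraries (correlations of deviations −0.192 to 0.232). The comparisons that share a group share its libraries. The members and lists were chosen with earlier results of these data known; the genes named from the other lists are up to 3 called genes per list and comparison with the smallest adjusted p, and every called dual-specificity phosphatase, and not all of these are printed; Pde4b, Phlda1 and Emp1 for isoproterenol, the markers with values, and the lower genes of the ERK cascade and of the other inhibitors were named after their values were seen. Alternatives covered scaling, filter, floor, experiment term, replicate block, variance model, single experiments and leaving out each library. Summary rows that name no gene (4 per file) and 2 list symbols with 2 rows each were left out; per library, 19.44% to 22.3% of reads mapped to several places. The ERK cascade list leaves out 1 gene that is not reported here.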

Additional observations from a re-analysis of the deposited data

Results flagged for a closer look

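In 3 of 36 groups of 4 libraries (9 genes in 4 groups), 1 library stood apart from the other 3 by Dixon's test on the scaled log2 levels, where the gap to the nearest library exceeds the 95% critical share of the group's range. Chance alone flags about 1 in 20 such groups. Dusp1 was at 39.8 RPM in control siRNA replicate 2 of experiment 2 (gap 0.865 of the range), above the other 3 control libraries. Dusp16 was at 40.74 RPM in control siRNA replicate 1 of experiment 2 (0.855), also the highest of its group. Spred1 was at 149.2 RPM in replicate 1 of experiment 1 of the Cebpb siRNA and isoproterenol group (0.868), above the other 3, which lie within 130.5 to 131.6 RPM.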

How the results depend on the processing

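Each value was refitted under up to 28 alternatives, and no called value changed sign. Of 54 member values (9 genes in 6 comparisons), 16 were called; 9 of these were called under every alternative run for them and 7 lost the call under at least 1, while 3 uncalled ones gained it under at least 1. The 9 are Dusp5 with isoproterenol in control siRNA cells, Dusp1, Dusp2 and Spred1 for the siRNA in both settings, Dusp6 for the siRNA without isoproterenol, and Dusp2 between experiments. For isoproterenol in control siRNA cells, 2 members were called, and 1 was called with a filter of at least 1 library above the floor, without the experiment term, with the replicate block (Dusp6 adjusted p = 0.0682), without trend and robust fitting, in experiment 1 alone and in experiment 2 alone; leaving out single libraries gave 1 to 2. All genes called there numbered 179, and 46 without the experiment term, 112 without trend and robust fitting, 108 in experiment 1, 19 in experiment 2, 409 from only the libraries of the groups compared, and 98 to 253 on leaving out single libraries (98, 108, 111, 113 and 114 without control siRNA replicate 1 of experiment 1, control siRNA and isoproterenol replicates 2 and 1 of experiment 2, control siRNA replicate 2 of experiment 2, and control siRNA and isoproterenol replicate 2 of experiment 1). In Cebpb siRNA cells the 2 members became 1 without the experiment term, without trend and robust fitting and from only the groups compared, 0 in experiment 2 alone by limma (3 had an unadjusted p under 0.05), and 1 to 2 on leaving out single libraries; the 605 genes became 197, 250, 145 and 252 without the experiment term, in experiment 1, in experiment 2 and from only the groups compared, and the 25 of the difference of responses became 10, 12 and 2 under the first 3 of these. For the siRNA with isoproterenol the 5 members became 3 in experiment 2 alone, 4 with the replicate block, and 3 to 6 on leaving out single libraries (3 without replicate 1 of experiment 1 of that siRNA group); between experiments the 1 became 1 to 2, with Dusp16 added (0.16, adjusted p = 0.0318) without replicate 2 of experiment 2 of the Cebpb siRNA and isoproterenol group. The replicate block changed no other member's call. On the values as deposited, the isoproterenol calls split into 145 higher and 27 lower in control siRNA cells (129 and 50 after scaling) and 455 and 153 in Cebpb siRNA cells (313 and 292). Values at or under 1 RPM limit what can be said of Spry1.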
